A study of Mus musculus with 11 samples.

Results

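The genes described here are 8 genes of MHC class I antigen presentation in AML12, a line of mouse hepatocytes: *H2-K1* and *H2-D1*, *B2m*, *Tap1*, *Tap2*, *Tapbp*, *Nlrc5* and *Erap1*. They were chosen by name, as the rows of the deposited count table that carry one of these gene names. The table held 26462 usable entries, which gave 24849 genes once the counts of entries with 1 name were added, and 23 of the entries belonged to the 8 genes. There were 4 libraries of KO cells, 3 of WT cells and 4 of KI cells, all of polyadenylated RNA. The KO cells carry a CRISPR/Cas9 disruption of *Txndc5* with a puromycin resistance gene, although the genotype label of the same libraries says knockdown; they were selected as stable puromycin-resistant cells, and whether the 4 libraries come from 1 clone is not stated. The KI cells are labelled as a knockin, meant to overexpress TXNDC5, an endoplasmic reticulum (ER) protein disulfide isomerase, from the ROSA26 locus. The WT cells are the parental line, with libraries named 7, 8 and 5-6, the last a single library. The methods describe 1 culture medium for AML12 cells, with serum, insulin, transferrin, selenium and dexamethasone, and name no cytokine treatment. Nothing says that the libraries of a group came from separate cultures, so the p-values measure the spread between these libraries, which may be technical.

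MHC class I molecules show peptides from inside the cell to CD8+ T cells. Proteasomes cut proteins into peptides, the TAP1-TAP2 transporter carries the peptides into the ER, ERAP1 trims them there, and tapasin (the product of *Tapbp*) holds the empty class I molecule at the transporter until a peptide is bound. The class I molecule itself is a heavy chain (H2-K1 or H2-D1) with the light chain beta-2-microglobulin (B2m), and NLRC5 is a transactivator that is recruited to class I promoters by factors bound at the X and Y boxes. Hepatocytes express the pathway at rest, and interferon raises it.

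The promoters are shown because NLRC5 and the interferon factors act on these elements. A further reason is that the genes whose windows hold such words did not all pass the same tests. Whether their changes differed from each other was not tested. RefSeq (GRCm38.p6) gave windows for 6 of the 8 genes, not for *Tap2* and *Nlrc5*. In the 250 bases before each start, 4 words were searched on both strands: the Y box word CCAAT, the X2 box word TGACG, the kappa B word GGGATTCC and the core of the interferon-stimulated response element (ISRE), TTCNNTTTC. Capitals mark the matches, written as they read on the gene's strand, 5′ to 3′. The windows are chr17:34000348-34000597 on the minus strand for *H2-K1* (the first of its 2 windows), chr17:35262844-35263093 on the plus strand for *H2-D1*, chr2:122147437-122147686 on the plus strand for *B2m* and chr17:34187306-34187555 on the plus strand for *Tap1*.
H2-K1: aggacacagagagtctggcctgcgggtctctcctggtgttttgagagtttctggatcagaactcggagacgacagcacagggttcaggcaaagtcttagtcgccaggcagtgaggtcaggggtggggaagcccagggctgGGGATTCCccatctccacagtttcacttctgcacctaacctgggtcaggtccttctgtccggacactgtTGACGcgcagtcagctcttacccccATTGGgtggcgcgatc
H2-D1: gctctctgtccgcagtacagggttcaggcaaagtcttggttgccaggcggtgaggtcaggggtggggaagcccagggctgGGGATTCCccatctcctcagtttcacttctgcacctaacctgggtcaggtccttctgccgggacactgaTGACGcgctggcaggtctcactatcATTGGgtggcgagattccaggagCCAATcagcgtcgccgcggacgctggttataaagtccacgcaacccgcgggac
B2m: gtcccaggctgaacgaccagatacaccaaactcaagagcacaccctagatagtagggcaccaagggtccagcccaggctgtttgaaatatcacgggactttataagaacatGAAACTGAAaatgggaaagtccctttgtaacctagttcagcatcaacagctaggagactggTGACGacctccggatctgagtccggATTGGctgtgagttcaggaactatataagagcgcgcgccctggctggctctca
Tap1: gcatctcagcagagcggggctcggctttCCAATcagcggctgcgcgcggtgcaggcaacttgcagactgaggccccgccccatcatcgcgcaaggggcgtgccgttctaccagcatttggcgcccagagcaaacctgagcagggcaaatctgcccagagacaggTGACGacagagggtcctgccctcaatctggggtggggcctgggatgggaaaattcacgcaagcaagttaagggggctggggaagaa

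*H2-K1*, *H2-D1* and *B2m* carried the X2 word followed by the Y word in its reverse form with exactly 20 bases between them. This spacing, noticed after the windows were read, was found in 30 of all 32851 windows of the same length (0.0913%), which belong to 26 genes, among them the class I-like gene *H2-M3*. Singly the words are common: the Y word occurred in 33.8% of all windows, the X2 word in 17.8%, the ISRE core in 7.13% and the kappa B word in 0.889%. *H2-K1* and *H2-D1* shared the kappa B word, with 61 bases between it and the X2 word in both. *B2m* had an ISRE core as searched and no kappa B word, and looser forms of these words were not searched. *Tap1* had an X2 word and a Y word too, but with the Y word upstream and 131 bases between them, and its window overlaps that of *Psmb9*, an immunoproteasome subunit read from the opposite strand. Of the windows not printed, that of *Tapbp* held 2 Y words and that of *Erap1* an ISRE core. A match is a word in a sequence and not evidence of binding, and a window without a match says only that these letters are not in it.

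The depth was 30380360 to 38422243 counts for the KO libraries, 29840366 to 30364098 for WT and 32360709 to 35335070 for KI. Levels are counts scaled to library size (CPM) with edgeR's TMM factors, which were 0.744 to 0.947 in WT, 1.05 to 1.13 in KO and 1.02 to 1.12 in KI libraries. The targeted gene *Txndc5* was at 8.50 to 12.9 CPM in the KO, 138 to 147 CPM in the WT and 158 to 179.5 CPM in the libraries labelled KI. The fall in KO cells was 14.1-fold (log2 fold change -3.81, standard error (SE) 0.15, adjusted p = 4.09e-08, edgeR), while the libraries labelled KI were only 1.18-fold above WT, which did not pass the test (log2 fold change 0.24, SE 0.12, adjusted p = 0.136), so the counts on this gene do not show a strong overexpression and every direction given for KI rests on the label. The 14 hepatocyte markers summed to 9888 to 11754 CPM in KO, 7441 to 9484 in WT and 8626 to 10206 in KI libraries. These sums hide changes of single markers in both directions. In KO against WT, 7 of the 14 were called higher and 5 lower, beside 26.7% and 28.4% of all genes tested. In KI against WT, 4 of the 13 tested were called higher and 3 lower, beside 21.2% and 21.0% of all genes. *Alb*, the main plasma protein of hepatocytes, had a mean of 4115 CPM in KO, 513 in WT and 246 in KI, and *Ttr*, another plasma protein, 438, 826 and 597 CPM. The part of these shifts in the results below was not tested. The 13 immune cell markers summed to 2.16 to 2.85 CPM in KO, 6.73 to 10.3 in WT and 4.70 to 8.18 in KI libraries, with 6, 8 and 9 of them at or under 3 counts in every library of the group; *Adgre1*, *Cd4* and *Nkg7* were at 0 throughout. Immune cells express class I genes. The marker sums were lower in KO than in WT and KI libraries, and their part in the results below was not tested. In RNA from whole cultures, fewer cells of a type and less RNA per cell cannot be told apart.

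The 8 genes did not move alike across the 3 lines. *Tap1* and *Tap2* were higher in KO than in WT and lower in KI than in WT, the heavy chains were lower in KI than in WT by calls that did not hold in every alternative, *Nlrc5* was higher in both edited lines, and *B2m* and *Erap1* passed no test. In KO against WT, 3 of the 8 genes were called, all higher (*Tap1*, *Tap2* and *Nlrc5*), beside 55.1% of all 13359 genes tested (26.7% called higher and 28.4% lower). In KI against WT, 5 of the 8 were called, *Nlrc5* higher and *H2-K1*, *H2-D1*, *Tap1* and *Tap2* lower, beside 42.3% of 13534 genes (21.2% higher and 21.0% lower). In KO against KI, 6 of the 8 were called, all higher in KO, beside 54.0% of 13269 genes (27.0% higher and 27.0% lower). The count of members called was thus not above the background in KO against WT. The median log2 fold change of the 8 genes was 0.26, -0.38 and 0.63 in the 3 comparisons, and that of all genes tested was -0.03, -0.02 and 0.00. The 3 comparisons share libraries pairwise and are not independent of each other. A call is an adjusted p under 0.05 in the quasi-likelihood test of edgeR, adjusted by Benjamini-Hochberg over all genes tested, and all adjusted p-values below come from it.

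**Figure D1:**
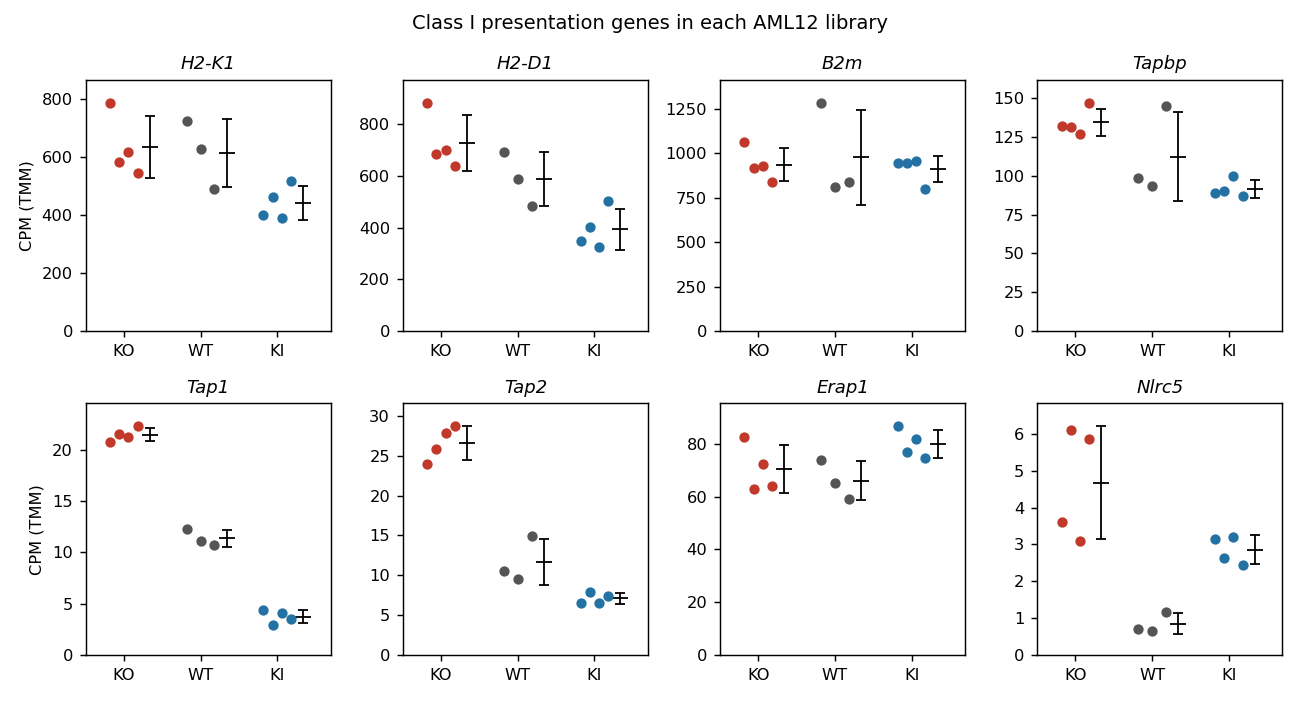
Level of each of the 8 genes in CPM (TMM, linear axis from 0) in the KO, WT and KI libraries. Points are libraries, and the black marks give the group mean with its SD. *Tap1* separates all 3 groups, at 20.8 to 22.3 CPM in KO, 10.7 to 12.3 in WT and 2.95 to 4.36 in KI, while the 3 groups overlap for *B2m*.

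The heavy chains bind the peptide and meet the T cell receptor. *H2-K1* was at 786, 582, 616 and 545 CPM in KO libraries 5 to 8, at 722, 628 and 489 CPM in WT 5-6, 7 and 8, and at 401, 462, 388 and 516 CPM in KI libraries 5 to 8. KO and WT overlapped over most of their range, WT 8 lay below KI 8, and every KO library was above every KI library. The level in KI was 1.39-fold lower than in WT (log2 fold change -0.48, SE 0.17, adjusted p = 0.0375), and the KO level differed from WT by less than the spread (0.02, SE 0.18, adjusted p = 0.915). KO exceeded KI 1.44-fold (0.52, SE 0.12, adjusted p = 0.00186).

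*H2-D1*, the other heavy chain measured, was at 883, 686, 699 and 638 CPM in KO, at 692, 589 and 483 CPM in WT and at 347, 401, 324 and 502 CPM in KI libraries, in the same order. The KO libraries were the highest of the 3 groups on average but overlapped with WT, and only KI 8 reached into the WT range. It fell 1.5-fold in KI against WT (log2 fold change -0.58, SE 0.18, adjusted p = 0.0207), did not pass in KO against WT (0.29, SE 0.17, adjusted p = 0.168) and was 1.85-fold higher in KO than in KI (0.89, SE 0.13, adjusted p = 4.91e-05). Both KI calls against WT were weak: with library totals in place of TMM, *H2-K1* gave -0.13 (adjusted p = 0.459) and *H2-D1* -0.24 (adjusted p = 0.216), and both were lost when WT 5-6, WT 7, KI 5, KI 6 or KI 7 was left out (*H2-K1* -0.34, -0.46, -0.43, -0.50 and -0.42; *H2-D1* -0.44, -0.58, -0.53, -0.59 and -0.50). *H2-K1* also lost its KI call with the replicate number as a block (-0.49, adjusted p = 0.0715). The calls against KO held in all 16 alternatives. Against WT, the KO value of *H2-K1* ran from -0.10 to 0.45 over the alternatives and was called in 1 of 15, with library totals. The KO value of *H2-D1* ran from 0.18 to 0.71 and was called in 2 of 15, library totals among them. Mouse class I heavy chains are close relatives whose reads may be split between genes in counting, so these values are uncertain in a way that replicates do not show.

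*B2m*, the light chain that every class I molecule needs, was the most abundant of the 8 and the least changed between KO and KI. It was at 1066, 916, 926 and 838 CPM in KO, 1285, 809 and 836 CPM in WT and 948, 944, 956 and 802 CPM in KI libraries. WT 5-6 stood above all other libraries and KI 8 below the other KI libraries, and the groups overlapped. No comparison was called: the log2 fold change was -0.08 (SE 0.18, adjusted p = 0.735) in KO against WT, -0.10 (SE 0.18, adjusted p = 0.701) in KI against WT and 0.04 (SE 0.10, adjusted p = 0.745) in KO against KI. The sign against WT depended on the scaling and on WT 5-6: library totals gave 0.35 in KO and 0.26 in KI, and leaving out WT 5-6 gave 0.19 and 0.15, none of them called.

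The transporter subunits pump cytosolic peptides into the ER. *Tap1* was at 20.8, 21.5, 21.3 and 22.3 CPM in KO, at 12.3, 11.1 and 10.7 CPM in WT and at 4.36, 2.95, 4.13 and 3.50 CPM in KI libraries. All 3 groups were apart, with the spread within KO far smaller than the distance to WT. It was 1.87-fold higher in KO than in WT (log2 fold change 0.90, SE 0.13, adjusted p = 0.000197), 3.00-fold lower in KI than in WT (-1.59, SE 0.20, adjusted p = 5.07e-05) and 5.70-fold higher in KO than in KI (2.51, SE 0.14, adjusted p = 1.36e-09). These calls held in all 15, 15 and 16 alternatives run, with log2 fold changes of 0.85 to 1.32, -1.91 to -1.25 and 2.28 to 2.78.

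*Tap2*, the partner subunit, was at 24, 25.9, 27.8 and 28.7 CPM in KO, at 10.5, 9.56 and 14.9 CPM in WT and at 6.57, 7.94, 6.48 and 7.39 CPM in KI libraries. Again no groups overlapped, and WT 8 was the highest WT library. The level was 2.24-fold higher in KO than in WT (log2 fold change 1.17, SE 0.17, adjusted p = 0.000206), 1.64-fold lower in KI than in WT (-0.71, SE 0.19, adjusted p = 0.00942) and 3.74-fold higher in KO than in KI (1.90, SE 0.12, adjusted p = 4.65e-09). The KI call against WT was lost with library totals (-0.41, adjusted p = 0.167); the other 2 calls held in every alternative run. Leaving out WT 8 moved the KO value to 1.41 and the KI value to -0.49.

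*Tapbp* encodes tapasin, which bridges the empty class I molecule and TAP. Its level was 132, 131, 127 and 147 CPM in KO, 98.3, 93.1 and 145 CPM in WT and 88.9, 90.3, 100 and 86.8 CPM in KI libraries. WT 8 lay among the KO libraries and the other 2 WT libraries among or near the KI libraries. Neither comparison with WT was called (log2 fold change 0.24, SE 0.16, adjusted p = 0.214 in KO; -0.29, SE 0.16, adjusted p = 0.159 in KI), and KO was 1.47-fold above KI (0.55, SE 0.08, adjusted p = 5.92e-05). Without WT 8 the KO value was 0.49 and was called (adjusted p = 0.00141), and the KI value was -0.06 (adjusted p = 0.664). In the fit with the replicate number as a block, the KO value of *Tapbp* was 0.29 and was called as well (adjusted p = 0.0370). It was also called with library totals, so that 3 of 15 alternatives gave a call.

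*Erap1*, the aminopeptidase that trims peptides in the ER, was at 82.8, 63.1, 72.3 and 64.2 CPM in KO, at 73.8, 65.2 and 59.0 CPM in WT and at 86.7, 77.0, 81.7 and 74.8 CPM in KI libraries. Every KI library was above every WT library, by little, and KO overlapped both. None of the 3 comparisons passed (log2 fold change 0.08, SE 0.14, adjusted p = 0.649 in KO against WT; 0.28, SE 0.13, adjusted p = 0.107 in KI against WT; -0.18, SE 0.10, adjusted p = 0.143 in KO against KI). With library totals it was called higher in both edited lines, at 0.50 and 0.62.

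*Nlrc5*, the class I transactivator, was the least abundant of the 8, at 129, 206, 103 and 255 counts in KO, 16, 16 and 33 counts in WT and 113, 95, 123 and 80 counts in KI libraries. In CPM this was 3.62, 6.10, 3.09 and 5.87 in KO, 0.713, 0.646 and 1.17 in WT and 3.16, 2.62, 3.21 and 2.43 in KI. All edited libraries were above all WT libraries, and KO and KI overlapped, since KO 7 lay below 2 of the KI libraries. It was 5.13-fold higher in KO than in WT (log2 fold change 2.36, SE 0.37, adjusted p = 0.000248) and 3.21-fold higher in KI than in WT (1.68, SE 0.35, adjusted p = 0.00167), and both calls held in all 15 alternatives. It was 1.63-fold higher in KO than in KI (0.70, SE 0.25, adjusted p = 0.0228), a call that was lost without KO 6 (0.55), KO 8 (0.57), KI 6 (0.66) or KI 8 (0.63), and with the replicate block (0.66, adjusted p = 0.0754). So in the libraries labelled KI the transactivator was higher than in WT while *Tap1*, *Tap2* and both heavy chains were lower. Of these lower calls, only that of *Tap1* held in all 15 alternatives. That of *Tap2* held in 14 of 15, and those of *H2-K1* and *H2-D1* in 8 and 9.

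**Figure D2:**
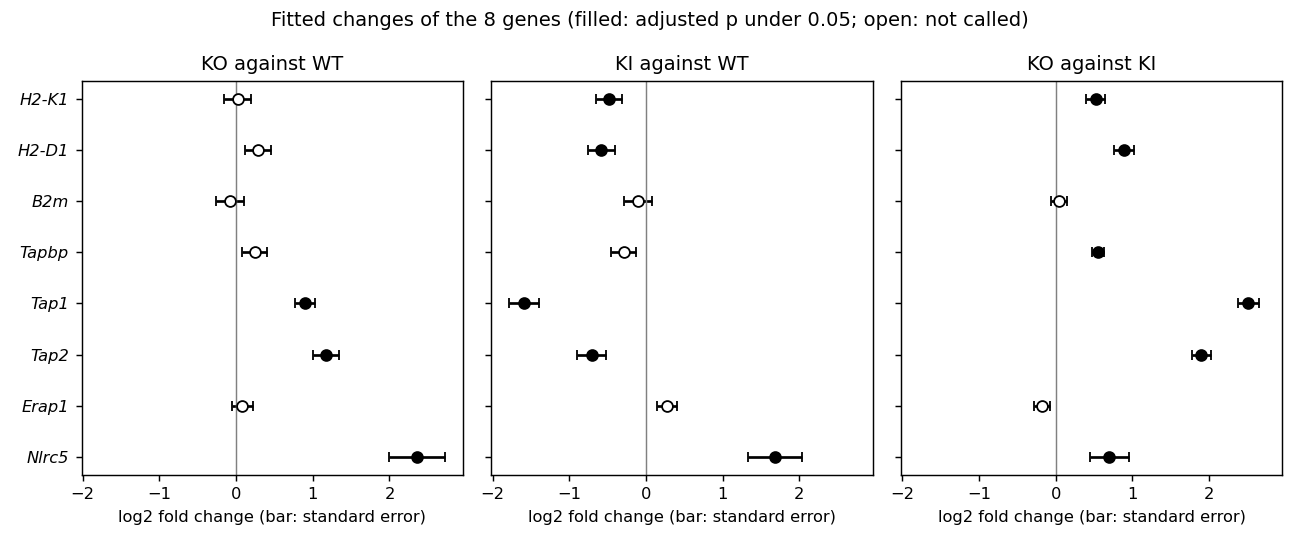
Fitted log2 fold change of each gene in KO against WT, KI against WT and KO against KI; bars are standard errors, filled points have an adjusted p under 0.05 and open points were not called. *Tap1* stands at 0.90 and -1.59 against WT in KO and KI, *Nlrc5* at 2.36 and 1.68, and *B2m* near 0 in each panel.

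The scaling bears on these results, because the choice between TMM and library totals moved the median of all genes. With library totals it was 0.38 in KO against WT, 0.30 in KI against WT and 0.06 in KO against KI, and the share of calls that were higher went from 48.5% to 72.8%, from 50.2% to 76.3% and from 50% to 56.1%. A ratio of 2 genes within a library does not depend on the scaling, and *B2m* was taken as the divisor. Per 1000 *B2m* counts, *Tap1* had 19.5 to 26.7 counts in KO, 9.54 to 13.7 in WT and 3.12 to 4.60 in KI libraries, so the 3 groups stayed apart. *Tap2* had 22.5 to 34.2 in KO, 8.15 to 17.8 in WT and 6.78 to 9.21 in KI, so KO lay above both other groups, which overlapped on this measure. *Nlrc5* had 3.34 to 7.00 in KO, 0.555 to 1.40 in WT and 2.77 to 3.36 in KI, again with WT below both. *H2-D1* had 749 to 828 in KO, 539 to 728 in WT and 339 to 625 in KI, so KO lay above both other groups, which overlapped. *H2-K1* had 635 to 737 in KO, 562 to 776 in WT and 406 to 643 in KI. All its groups overlapped, KO and KI included, since KI 8 lay above KO 6 on this measure. *Tapbp* had 124 to 175 in KO, 76.5 to 173 in WT and 93.8 to 108 in KI. Both edited lines overlapped with WT there, and KO lay above KI. *Erap1* had 68.9 to 78.1 in KO, 57.5 to 80.6 in WT and 81.5 to 93.3 in KI, so KI lay above both other groups. These ratios share their divisor and show unequal change, not which of the genes changed. The divisor itself varied within groups. WT 5-6, with the highest *B2m* level (1285 CPM), gave the lowest WT ratio of every gene. KI 8, with the lowest *B2m* level of KI (802 CPM), gave the highest KI ratios of *H2-K1* and *H2-D1* (643 and 625). The overlaps therefore depend in part on *B2m* in these libraries.

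**Figure D3:**
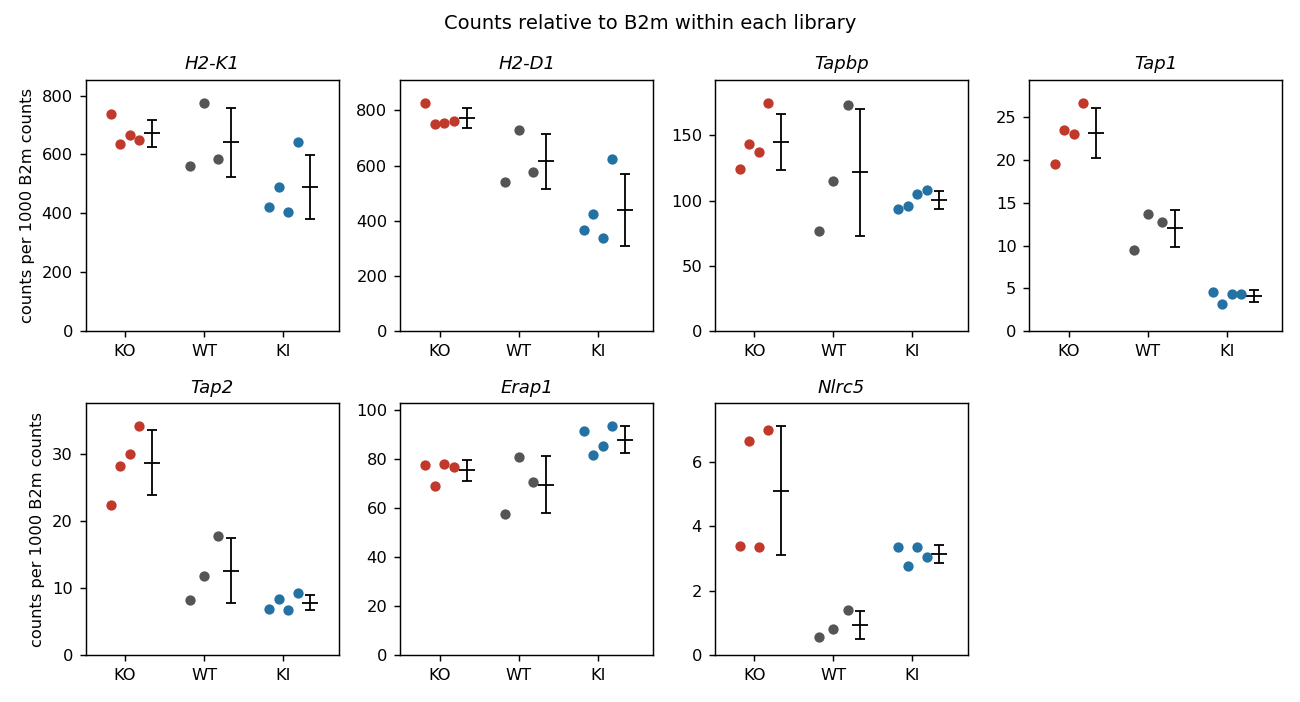
Counts of each of the other 7 genes per 1000 *B2m* counts of the same library (linear axis from 0), by group; black marks are the mean and SD. KO, WT and KI do not overlap for *Tap1*, and for *Nlrc5* the WT libraries, at 0.555 to 1.40, lie below all edited libraries.

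To compare levels between genes, CPM was divided by the exon length in kilobases of the GENCODE vM21 annotation. In WT this level was 1135 ± 311 CPM per kilobase for *B2m* (SD, n = 3), 228 ± 40.5 for *H2-D1*, 209 ± 39.9 for *H2-K1*, 30.9 ± 7.83 for *Tapbp*, 9.07 ± 1.02 for *Erap1*, 3.08 ± 0.756 for *Tap2*, 2.07 ± 0.149 for *Tap1* and 0.0992 ± 0.0335 for *Nlrc5*. The light chain thus stood several times above each heavy chain, and the transporter subunits were at a small part of the level of the chains they serve. *H2-D1* and *H2-K1* did not differ beyond their spread, and with the largest entry of each gene alone their order was the other way round (68.4 and 109). In KO the order was the same, with *Tap2* at 7.04 ± 0.548 and *Tap1* at 3.93 ± 0.115 (SD, n = 4). In KI it was the same again, with *Tap2* at 1.88 ± 0.184, *Tap1* at 0.682 ± 0.117 and *Nlrc5* at 0.336 ± 0.0459 (SD, n = 4), so that *Nlrc5* came nearer to *Tap1* than in the other lines.

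The table splits 5 of the genes into 4 numbered entries each, and entries of 1 name may hold the same reads, so that a summed level may count reads more than once. For *H2-K1* only 2 of the 4 entries held more than 1 count in any library. Of the 4 *Tap1* entries, 3 were called higher in KO against WT (log2 fold changes of 0.34 to 1.35 over the 4) and 4 were called lower in KI against WT (-1.91 to -1.19). For *Tap2*, 2 of 4 entries were called higher in KO (0.75 to 1.35) and 1 of 4 lower in KI (-0.85 to -0.52). In KO against KI all 4 entries of *Tap1* and all 4 of *Tap2* were called higher. With the largest entry alone, the same number of members was called in each comparison, 3, 5 and 6.

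Peptides for class I come from the proteasome, and interferon exchanges 3 of its subunits for those of the immunoproteasome. *Psmb8*, whose gene lies between *Tap1* and *Tap2* on chromosome 17, moved with the transporter: it was at 43.3, 33.3, 37.1 and 37.7 CPM in KO, 10.8, 13.0 and 11.6 CPM in WT and 3.22, 4.49, 5.15 and 4.90 CPM in KI libraries. It was 3.15-fold higher in KO (log2 fold change 1.65, SE 0.15, adjusted p = 6.86e-06) and 2.64-fold lower in KI (-1.40, SE 0.20, adjusted p = 0.000160) than in WT. *Psmb9*, which shares the promoter region of *Tap1*, was not called in KO (0.28, SE 0.20, adjusted p = 0.252) and fell 3.05-fold in KI (-1.61, SE 0.21, adjusted p = 7.89e-05). *Psmb10*, the remaining exchanged subunit, went another way, with 0.20 in KO, not called (adjusted p = 0.447), and 0.87 in KI (adjusted p = 0.00494). The activator subunits *Psme1* and *Psme2* were lower in both lines, at -0.58 and -0.57 in KO and -0.61 and -0.89 in KI. With library totals the calls were lost for *Psme1* in both lines (-0.19 and -0.31) and for *Psme2* in KO (-0.13), where the call held in only 9 of 15 alternatives. Leaving out WT 5-6 gave -0.36 for *Psme2* in KO, and leaving out KO 6, KO 7, KO 8 or WT 7 gave -0.51, -0.57, -0.50 and -0.54, none of them called. Of the 13 genes of peptide supply tested, 2 were called higher and 3 lower in KO (all genes: 26.7% and 28.4%), and 4 higher and 4 lower in KI (all genes: 21.2% and 21.0%).

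Chaperones and enzymes of the ER help class I molecules to fold and load. Of 11 such genes, 6 were called higher and 0 lower in KO against WT (all genes: 26.7% and 28.4%). In KI against WT, 0 were called higher and 1 lower (all genes: 21.2% and 21.0%). The 1 lower gene was *Hspa5*, the general ER chaperone, at -0.76 in KI and 0.61 in KO. *Calr*, the lectin chaperone of the loading complex, was at 775 to 869 CPM in KO, 329 to 484 in WT and 404 to 420.2 in KI libraries, 2.09-fold higher in KO (log2 fold change 1.06, SE 0.16, adjusted p = 0.000242) and not called in KI (0.07, adjusted p = 0.729). *Pdia3*, the disulfide isomerase joined to tapasin in that complex, was 1.88-fold higher in KO (0.91, SE 0.13, adjusted p = 0.000188) and at 0.00 in KI (SE 0.14). *Tapbpl*, a relative of tapasin that edits peptides, was higher in KO (0.54, adjusted p = 0.00534), with 0.38 in KI (adjusted p = 0.0623). *Canx*, the membrane-bound lectin chaperone, had 0.21 and 0.38, neither called. These genes also serve proteins other than class I.

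Among the regulators of transcription, *Irf7*, an interferon-induced factor, rose in KO (1.32, SE 0.19, adjusted p = 0.000179) and fell in KI (-1.13, SE 0.28, adjusted p = 0.00603), as *Tap1* did. *Irf9*, a subunit of the factor that binds the ISRE, fell in KI (-1.17, adjusted p = 8.25e-05) and had 0.18 in KO, not called (adjusted p = 0.349). *Irf1*, an activator of *Tap1* and *Psmb9* in interferon responses, was higher in KI (1.04, SE 0.15, adjusted p = 0.000218) and had 0.17 in KO, not called (adjusted p = 0.326). *Rfx5*, which binds the X box, was higher in KI (0.59, adjusted p = 0.00496) and had -0.16 in KO (adjusted p = 0.351). *Nfkb1* and *Ezh2* were higher in both lines, at 0.60 and 0.80 in KO and 1.32 and 1.13 in KI. Of 19 regulators tested, 10 were called higher and 1 lower in KO (all genes: 26.7% and 28.4%), and 7 higher and 3 lower in KI (all genes: 21.2% and 21.0%). Of the 10 interferon receptors and kinases, 3 and 1 were called higher and lower in KO and 1 and 2 in KI, beside the same shares of all genes. *Jak2*, a kinase of the interferon gamma receptor, was lower in both (-1.01 and -0.67), and its KI call was lost with library totals (-0.34, adjusted p = 0.0728).

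**Figure D4:**
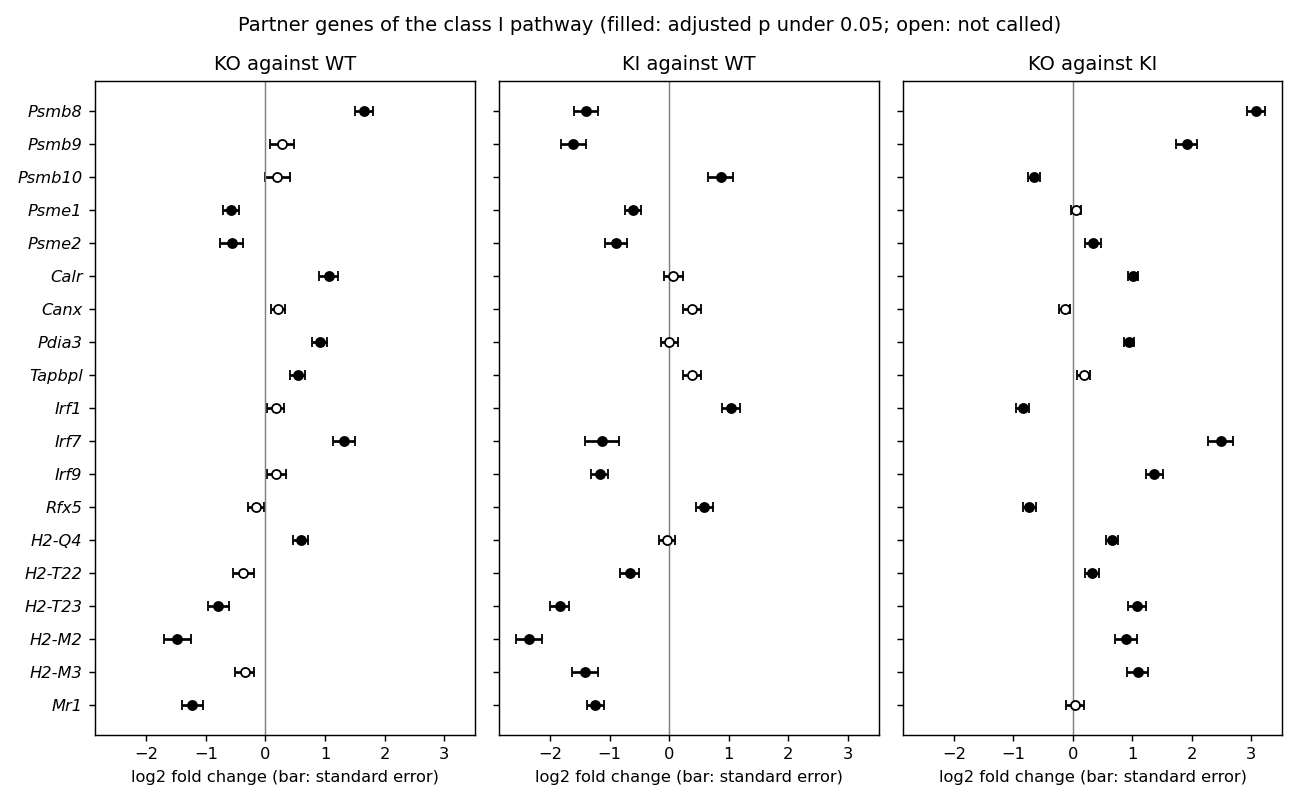
Fitted log2 fold change of 19 partner genes of the pathway in the 3 comparisons; bars are standard errors, filled points have an adjusted p under 0.05. *Psmb8* and *Irf7* lie to the right of 0 in KO and to the left in KI, *Calr* and *Pdia3* to the right in KO and near 0 in KI against WT, and *H2-T23*, *H2-M2* and *Mr1* to the left in both comparisons with WT.

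Other class I and class I-like chains were called in both directions in KO. Of 36 listed, 16 were tested in KO against WT, with 4 called higher and 7 lower (all genes: 26.7% and 28.4%) and a median log2 fold change of -0.36, beside -0.03 over all genes. In KI against WT 15 were tested, with 1 higher and 10 lower (all genes: 21.2% and 21.0%) and a median of -1.24, beside -0.02 over all genes. *H2-T23*, the mouse Qa-1 heavy chain that shows leader peptides to NK cells, was at 18.9, 14.2, 18.4 and 13.1 CPM in KO, 31.6, 27.0 and 24.1 CPM in WT and 7.05, 6.92, 7.76 and 8.97 CPM in KI libraries. It was lower in both lines, 1.73-fold in KO (log2 fold change -0.79, SE 0.17, adjusted p = 0.00217) and 3.57-fold in KI (-1.84, SE 0.16, adjusted p = 4.79e-06), and the KO call was lost with library totals (-0.37, adjusted p = 0.0707). *H2-M2* was also lower in both (-1.48 and -2.35), as was *Mr1*, which presents vitamin B metabolites (-1.23 and -1.24). *H2-M3*, which presents formylated peptides and has the 20-base X2 and Y spacing, fell in KI (-1.42, adjusted p = 0.000269) and had -0.35 in KO (adjusted p = 0.0741). *Hfe*, the iron regulator, and *Azgp1* fell in KI as well (-1.27 and -1.24), with -0.22 and 0.04 in KO, not called. *H2-Q4* was higher in KO (0.59, adjusted p = 0.00199) and had -0.04 in KI (adjusted p = 0.849). *H2-Q1* was at 183, 160, 0 and 114 counts in KO, at 125, 0 and 101 counts in WT and at 0 in all KI libraries, so that counts of 0 also occurred beside libraries of the same line with over 100 counts. The other *H2-Q* genes in the table had too few counts to test.

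The members on chromosome 17 lie in the mouse MHC, from *Tapbp* to *H2-D1*, whereas *B2m* is on chromosome 2, *Nlrc5* on 8 and *Erap1* on 13. Of the other 63 genes tested in that interval, 20 were called higher and 16 lower in KO against WT (all genes: 26.7% and 28.4%; median log2 fold change -0.06), and 8 higher and 11 lower in KI against WT (all genes: 21.2% and 21.0%; median -0.17). In KO against KI it was 22 higher and 7 lower of 62 (all genes: 27.0% and 27.0%; median 0.19).

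The genes whose pattern over the 11 libraries was most like that of 3 members were sought among 13948 genes. The measure was the root mean square difference of mean-centred log2 CPM plus 1, which shrinks differences at low levels. Closest to *Tap1* were *C1s1* (0.219), *Oas1g* (0.220) and a newly assembled gene (0.226). Their log2 fold changes against WT were 1.09, 1.42 and 0.96 in KO and -1.15, -2.97 and -1.42 in KI. Those of *Tap1* were 0.90 and -1.59, so the likeness does not mean equal fold changes. For *H2-K1* they were *Ssna1* (0.0648), *Urod* (0.0779) and *Nfs1* (0.0792), and for *B2m* *Polr2b* (0.0542), *Suclg1* (0.0788) and *Prps1* (0.0835). The larger distance for *Tap1* goes with its larger range over the libraries.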

How the data were processed

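AML12 cells were sequenced as polyadenylated RNA in 11 libraries. The authors deposited 1 table with unnormalized read counts per gene entry; per the labels HISAT2, TopHat2, Bowtie2 and StringTie were used, in a role and order not given, and the genome build and counting tool are not given in the sources used here. Of 26472 lines, 10 broken ones were left out. FPKM columns (11) with lost decimal points and the authors' own fold changes and p-values were not used. Counts were summed by gene name, filtered by filterByExpr and scaled by TMM. They were tested with edgeR 4.0.16 (R 4.3.3), robust quasi-likelihood, prior count 2, each comparison with its 2 groups only. The procedure was run on simulated counts in which few genes changed, as many up as down. That run does not bear on the choice of scaling. Alternatives were library totals, DESeq2 1.42.0, limma 3.58.1 on log2 CPM plus 1, no filter, all libraries in 1 fit, a replicate block, 2 newly assembled entries left out, each library left out, and, chosen after seeing the data, the largest entry alone. A floor of 3 counts was used. Named were all members, *Txndc5*, direct partners, and listed genes called against WT with an absolute log2 fold change over 1. The members, lists and tests were chosen with earlier results of these data known. Figures were drawn with Python 3.11.15 and matplotlib 3.10.9. Some results for listed genes are not reported here.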

Additional observations from a re-analysis of the deposited data

Results flagged for a closer look

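For 6 of the 8 genes the change from WT differed between KO and KI by the test of the difference itself, which equals KO against KI (edgeR's quasi-likelihood test, adjusted p under 0.05). The same test called 54.0% of all 13269 genes. The difference was 2.51 on the log2 scale for *Tap1*, 1.90 for *Tap2*, 0.89 for *H2-D1*, 0.70 for *Nlrc5*, 0.55 for *Tapbp* and 0.52 for *H2-K1*. *Tap1* and *Tap2* were called in opposite directions against the same WT libraries, whereas *Nlrc5* was called higher in both lines. The call for *Nlrc5* was lost in 5 of 16 alternatives, and those for the other 5 genes held in all 16.

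The *B2m* level of KI 8, at 802 CPM beside 944 to 956 CPM in the other KI libraries, stood apart by Dixon's test, with a gap of 0.926 of the group's range. It was the 1 library that stood apart among 16 groups looked at, the KO and KI groups of the 8 genes, where chance gives 0.8. The WT groups, of 3 libraries each, were not looked at in this way. In WT, *B2m* was at 1285 CPM in WT 5-6 beside 809 and 836 CPM in the other libraries.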

How the results depend on the processing

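With library totals in place of TMM, 7 of the 8 genes were called in KO against WT in place of 3, beside 7799 of all 13359 genes tested. In KI against WT it was 3 in place of 5, beside 6058 of 13534 genes. Leaving out each library in turn gave 3 to 4 calls in KO against WT, 3 to 5 in KI against WT and 5 to 7 in KO against KI. In the main fits, 55.1%, 42.3% and 54.0% of all genes were called in the 3 comparisons. Signs turned only for values that were not called: with library totals for *B2m* (0.35 in KO and 0.26 in KI against WT) and *Tapbp* (0.01 in KI against WT), and with the replicate block for *H2-K1* (-0.01 in KO against WT). Leaving out single libraries moved *H2-K1* from -0.10 to 0.18, *B2m* from -0.17 to 0.19 and *Erap1* from -0.01 to 0.19 in KO against WT, *B2m* from -0.22 to 0.15 in KI against WT and from -0.03 to 0.09 in KO against KI. Over the genes and alternatives, 107 of 120 values in KO against WT, 102 of 120 in KI against WT and 120 of 128 in KO against KI kept their direction and side of the threshold. The cause of the changes was not tested. Libraries share numbers across groups, but their deviations correlated between -0.383 and 0.503, so the numbers were not taken as pairs. With the replicate block, 4, 4 and 5 members were called, and the shares of all genes given above are those of the main fits. The H2 genes and multi-entry names may share reads, and WT rests on 3 libraries.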

Other observations

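The NKG2D ligands *Raet1d*, *Raet1e* and *H60b*, class I-like chains that bind neither B2m nor peptide, were at 18.1 ± 5.71, 28.4 ± 11.1 and 10.6 ± 3.18 CPM in WT (SD, n = 3) and at no more than 9, 7 and 8 counts in any KO library. In KI libraries they were at 4.38 ± 1.18, 3.93 ± 0.641 and 2.71 ± 0.347 CPM (SD, n = 4), with log2 fold changes against WT of -2.04, -2.84 and -1.95 (adjusted p = 5.61e-05, 6.23e-06 and 4.96e-05, edgeR). *Ulbp1*, another NKG2D ligand, was higher in KO (1.34, adjusted p = 0.00138) and had 0.32 in KI (adjusted p = 0.437). *Raet1* and *H60* genes are families of close relatives, so reads may be split between them. *Cd1d1*, which presents lipids to NKT cells, was lower in KO (-0.99, adjusted p = 0.0156) and higher in KI (1.49, adjusted p = 0.000459); the KO call was lost with library totals (-0.57, adjusted p = 0.113) and without WT 7 (-0.85, adjusted p = 0.0684).

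MHC class II was near the limit of detection. Of 11 genes, 3 had enough counts to test, *H2-Ab1*, *H2-Eb2*, *H2-Oa* and *Ctss* were at 0 in every library, and the summed level was 4.12 to 5.44 CPM in KO, 4.59 to 8.29 in WT and 3.75 to 4.76 in KI libraries. *H2-DMb1* was at 1.01 to 3.00 CPM in KO, at 2.99, 2.86 and 5.84 CPM in WT 5-6, 7 and 8 and at 1.51 to 2.54 CPM in KI. It was called lower in KO (-0.99) and in KI (-0.84), but without WT 8 the values were -0.55 (adjusted p = 0.253) and -0.43 (adjusted p = 0.278), and other alternatives also ended both calls.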
